A study of Mus musculus with 10 samples.

Results

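The genes described here are the nuclear-encoded genes of oxidative phosphorylation, chosen by symbol from the deposited count table: every symbol that starts with Nduf and a, b, c, s or v followed by a digit, Sdha to Sdhd, and every symbol that starts with Uqcr, with Cox and a digit from 4 to 8, or with Atp5. The rule found 84 of the 24059 gene symbols. Of these 35 belong to complex I, 4 to complex II, 8 to complex III, 20 to complex IV and 15 to complex V, and Atp5s and Atp5sl, which share the prefix, are not subunits. Ndufa4 and its isoform Ndufa4l2 were placed in complex IV, where the protein resides, although the symbols were given for complex I. Lung RNA was sequenced from 10 female C57Bl/6 mice at an age of 14 weeks, which makes each mouse 1 sample. For the last 8 weeks 5 mice had eaten a diet enriched in menhaden fish oil (FO) and 5 a diet enriched in coconut oil (CO). Both diets were high in fat, so no group received an ordinary chow. The tissue was whole lung flushed with PBS, and a value is therefore an average over all cell types of the lung.

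Oxidative phosphorylation takes place in the inner mitochondrial membrane. Complex I (NADH dehydrogenase) and complex II (succinate dehydrogenase) pass electrons to ubiquinone, complex III hands them to cytochrome c, and complex IV (cytochrome c oxidase) passes them to oxygen. Complexes I, III and IV pump protons, and complex V (ATP synthase) uses the proton gradient to make ATP. Most subunits are encoded in the nucleus and a few core subunits in mitochondrial DNA, so the RNA of many nuclear genes is made side by side in a cell. Several subunits of complexes IV and V exist in a widely expressed form and a form restricted to certain tissues such as heart and skeletal muscle. In lung, the alveolar type II cell is known for its many mitochondria.

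Nuclear respiratory factor 1 (NRF1), the ETS family member GABP and YY1 are known regulators of nuclear genes for mitochondrial proteins, and the letters of their binding sites were looked for in promoters. A promoter was taken as the 250 bases before to the 50 bases after the RefSeq gene start (assembly GRCm38.p6), and 69 of the 84 genes were matched to one. The NRF1 motif, a palindrome of 10 bases that reads the same on both strands and stands in capitals in the first set of sequences, was in 5 of the 69 promoters (7.25%), against 1.47% of the promoters of all 17492 genes. The ETS motif CCGGAAG or its complement CTTCCGG was in 16 (23.2%), against 12.9% of all, and the YY1 motif AAGATGGC or GCCATCTT was in 11 (15.9%), against 3.57% of all. No motif contains another one, and 29 of the 69 promoters held at least 1 of the 3. A match gives only that these letters are present. Stretches of 30 bases are shown 5′ to 3′ on the gene's own strand, with the motif in capitals, to display the letters that the promoters of different complexes share. The NRF1 letters are shown for the complex V gene Atp5k (chr5:108434430-108434459, minus strand), the complex IV gene Cox6a1 (chr5:115349101-115349130, minus), the complex I gene Ndufa11 (chr17:56717692-56717721, plus) and the complex III gene Uqcrc1 (chr9:108936668-108936697, plus).
Atp5k: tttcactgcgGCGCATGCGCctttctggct
Cox6a1: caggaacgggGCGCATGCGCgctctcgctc
Ndufa11: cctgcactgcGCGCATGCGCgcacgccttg
Uqcrc1: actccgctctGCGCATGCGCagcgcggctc

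The ETS letters are shown for Sdhb, the iron-sulfur subunit of complex II (chr4:140961265-140961294, plus strand), and for the complex III genes Uqcrh (chr4:116075063-116075092, minus) and Uqcr11 (chr10:80406870-80406899, minus). The YY1 letters are shown for the complex I genes Ndufa3 (chr7:3617384-3617413, plus) and Ndufc1 (chr3:51408915-51408944, minus) and for Atp5j of the complex V stalk (chr16:84835046-84835075, minus).
Sdhb: ggctcggagaaaCCGGAAGcggccttccac
Uqcrh: gagtatgccgcaCTTCCGGccaggtcgccg
Uqcr11: tttctctcctccCCGGAAGtagatgtcaat
Ndufa3: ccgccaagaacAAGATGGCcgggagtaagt
Ndufc1: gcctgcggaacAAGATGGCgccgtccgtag
Atp5j: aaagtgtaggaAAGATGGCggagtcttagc

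These libraries were shallow. The deposited values were counts of reads per gene, with 229766 to 1124963 counts per mouse, but Rn45s, the precursor of ribosomal RNA, took 21.8% to 87.0% of them. Outside Rn45s, FO mice 1 to 5 had 250422, 473254, 46470, 235781 and 91338 counts, and CO mice 1 to 5 had 45177, 55639, 136211, 280686 and 256386. FO mouse 3 and CO mice 1 and 2 were the shallowest. A gene at 0 counts could have an expected count of up to 3 by counting error alone, which corresponds to between 2.13 and 18.5 CPM. Counts of 1 to 3 are not zeros, but their difference from 0 lies within this limit. CPM are counts of a gene divided by the library's size in units of 1e+06 counts, after correction by edgeR's TMM factors, which set the bulk of the genes equal between mice. Depth limits the statements on single genes, since most of the 84 genes had fewer than 10 counts in the shallowest mice.

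FO mouse 2 and CO mouse 5 stood apart from the other mice. With Rn45s set aside, the nuclear long noncoding RNA Malat1 accounted for 8.53% of FO mouse 2's counts and 6.15% of CO mouse 5's, and for 0.135% to 1.05% in the other mice. The small nucleolar RNA genes took 2.35% and 1.36% in these mice, and 0.0819% to 1.16% in the others, with CO mouse 3 at the upper end. The sources name 2 kinds of library kit, one or the other, without saying which mouse had which or whether both were used for these mice. Each diet has 1 of the 2 mice that stood apart. Without both, 72 genes in all were called at an unadjusted p of 0.05 in edgeR and 0 of the 41 oxidative phosphorylation genes still tested, whose median log2 fold change was -0.01. Of the 20 oxidative phosphorylation genes whose fold change was followed through the alternatives, 17 were tested without these mice, each with the same sign as with them, and Ndufa4, Sdha and Uqcrc2 were not.

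The lung markers were well represented. Sftpc and Sftpa1, surfactant proteins of alveolar type II cells, had 6497 and 3955 counts over the 10 mice, and Scgb1a1, the secretory protein of club cells, had 6221. Sftpb had 577 counts, Ager of alveolar type I cells 597, and the endothelial genes Pecam1, Cldn5 and Cdh5 697, 262 and 215. None of the 5 epithelial and 3 endothelial markers passed an unadjusted p of 0.05. Of the heart genes, the 8 markers together had 85, 464, 17, 109 and 18 counts in FO mice 1 to 5 and 6, 11, 45, 36 and 146 in CO mice 1 to 5, with Myh6, the atrial and adult ventricular myosin, as the most abundant gene (339 counts).

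Among the 84 genes 7 were listed at 0, and so was a whole chromosome. Atp5g2, Cox6c, Ndufa6 and Ndufb9 had no count in any mouse, and these are the 4 genes of the group that lie on chromosome 15. Every one of the 705 protein-coding genes of chromosome 15 in the table was at 0 in all 10 mice, whereas on the other autosomes and the X chromosome 56.1% to 78.3% of protein-coding genes had a count. The same held for Cyc1, the cytochrome c1 subunit of complex III, and for Cox14, Sco2 and Pfkm, which also lie there. The zero of a subunit on chromosome 15 is thus shared with its whole chromosome and gives no level for that subunit. Why the chromosome is at 0 was not tested.

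**Figure D1:**
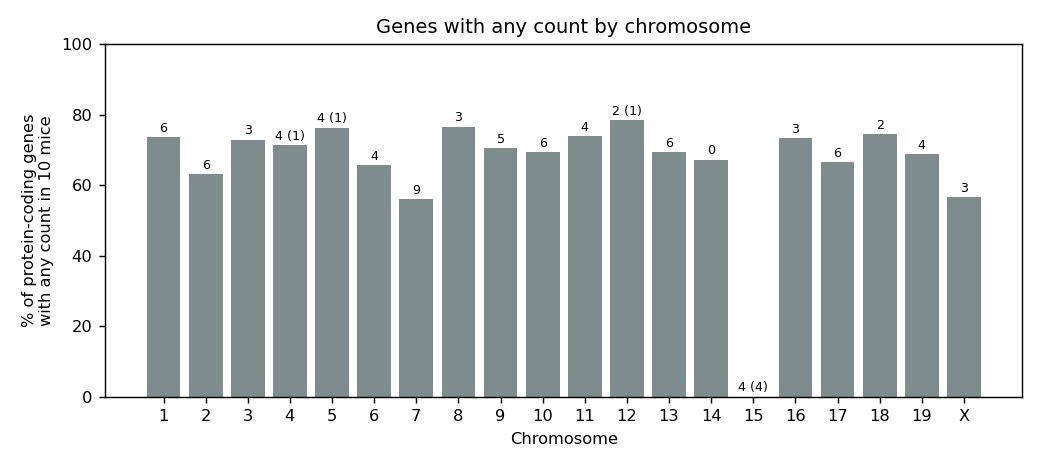
The bars give the percentage of protein-coding genes of each chromosome that had any count in the 10 mice, and the number above a bar is the number of oxidative phosphorylation genes on that chromosome, with those at 0 in parentheses. Chromosome 15 is at 0, with 4 of 4 such genes at 0, and the other chromosomes shown lie between 56.1% and 78.3%.

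The other 3 genes at 0 were Ndufs5, Cox7b2 and Cox8c. Cox7b2 and Cox8c are isoforms known from testis. The germ cell markers Prm1 and Tnp1 were also at 0, which in lung of female mice gives no information on these isoforms. Ndufs5 is a widely expressed accessory subunit of complex I on chromosome 4, and 31.1% of the stretches of 50 bases in its longest transcript also occur in another gene, the pseudogene-like BC002163. Reads that fit several genes equally are usually left out of such counts, so the sharing was computed for all widely expressed subunits outside chromosome 15. Of the 33 with less than 1% of shared stretches 24 had enough counts to be tested, of the 23 with 1% to under 25% it was 18, and of the 14 with 25% or more it was 6. The 3 of these subunits with fewer than 30 counts in all mice together were Ndufs5, Atp5l and Ndufs3, and all 3 were in the last group. Atp5l, a membrane subunit of ATP synthase, had 9 counts with 84.8% of its stretches shared, and Ndufs3, a core subunit of complex I, had 15 with 39.7%. In the same group Atp5h had 609 counts with 47.9% of its stretches shared. Atp5o had 874 with 50.3%, but the entry that shares most with it is a second annotated gene of the same symbol. The sharing of Atp5o with differently named genes alone was not computed, so its place in the last group is uncertain. The levels of Ndufs5, Atp5l and Ndufs3 are uncertain, and the part of shared reads in their low counts was not tested.

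Of the 84 genes 77 had a count and 48 passed the filter on low counts, which kept genes with about 10 counts in enough mice (2438 of all genes). The 48 comprised 17 genes of complex I, 3 of complex II, 7 of complex III, 10 of complex IV and 11 of complex V, with 123 to 1204 counts each. Another 19 genes with 41 to 136 counts were removed by the filter, and 10 had 9 to 21 counts. Of the 28 accessory subunits of complex I 16 were tested. Both catalytic subunits of complex II (Sdha and Sdhb) were tested, and of the 2 membrane anchors only Sdhc, since Sdhd had 48 counts. Of the 8 tissue-restricted isoforms of complex IV none was tested.

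The share of counts on these genes differed between FO and CO by less than the SD within a diet. Together the 84 genes took 1.23, 0.757, 1.39, 1.30 and 1.48% of the counts outside Rn45s in FO mice 1 to 5. In CO mice 1 to 5 they took 1.60, 1.22, 1.06, 1.38 and 0.828%. The groups overlapped over nearly their whole range, with means of 1.23% ± 0.28 in FO and 1.22% ± 0.30 in CO (SD, n = 5 each). The lowest mouse of each group was FO mouse 2 or CO mouse 5, and without them the range was 1.06% to 1.60%. The 95% exact Clopper-Pearson interval of the share was 0.733% to 0.782% in the deepest mouse (FO mouse 2) and 1.49% to 1.72% in the shallowest (CO mouse 1), which covers counting error only. In bulk tissue, fewer cells of a type and less RNA per cell cannot be told apart.

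The shares of the single complexes followed the same pattern. Complex I took 0.435% ± 0.108 in FO and 0.404% ± 0.093 in CO, and complex V 0.372% ± 0.081 and 0.397% ± 0.091 (SD, n = 5 each). Complex IV took 0.230% ± 0.048 and 0.227% ± 0.054, complex III 0.151% ± 0.044 and 0.149% ± 0.055, and complex II 0.0421% ± 0.0115 and 0.0404% ± 0.0116. All 5 complexes overlapped between the diets, and in each the SD within a diet exceeded the difference between the diets.

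**Figure D2:**
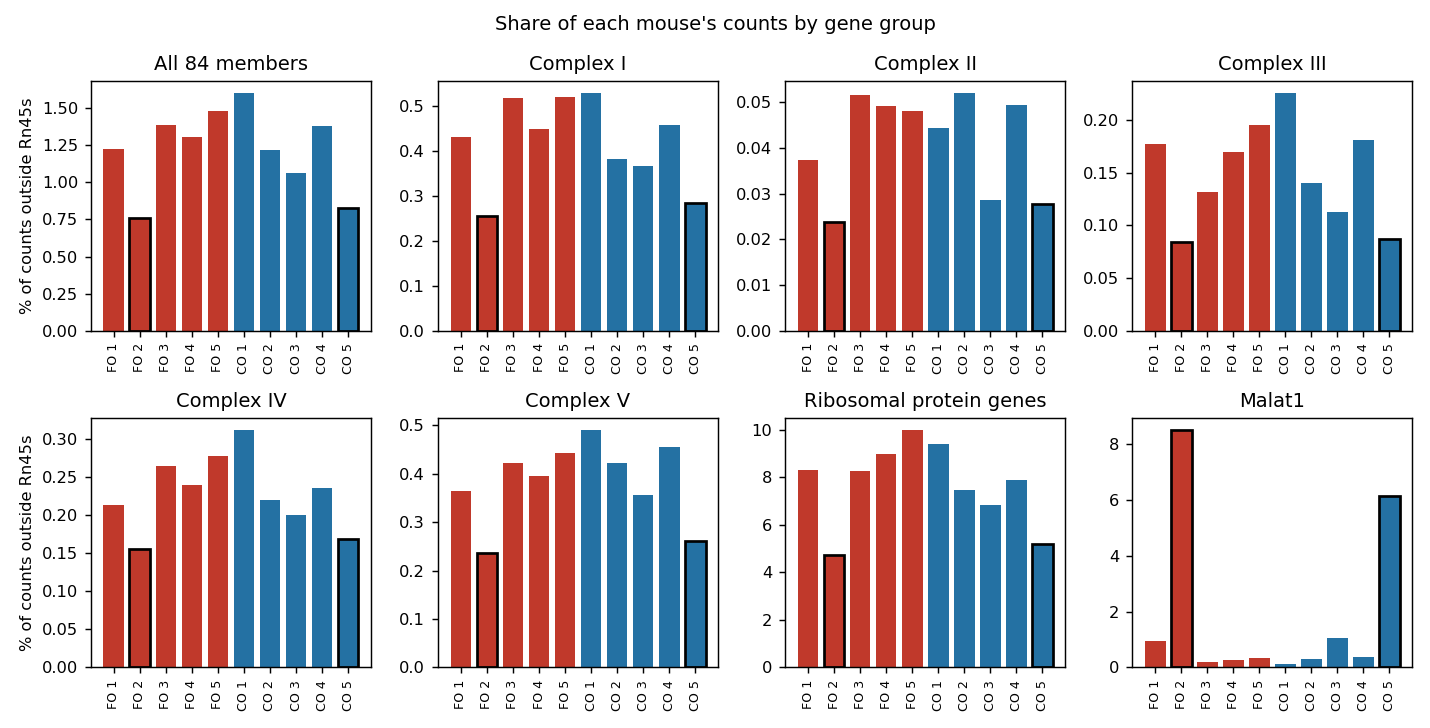
Bars give, for each of 10 mice (FO red, CO blue), the percentage of counts outside Rn45s that fell on all 84 genes, on each complex, on the ribosomal protein genes and on Malat1. FO mouse 2 and CO mouse 5 (black outlines) had the highest Malat1 shares (8.53% and 6.15%) and the lowest shares of all 84 genes (0.757% and 0.828%), while the diets overlapped in each panel.

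The comparison of FO with CO asked whether the diet changed the expression of the subunits. No tested gene of the group passed an unadjusted p of 0.05, the threshold of the study, in edgeR's quasi-likelihood test, with 0 of 48 called. Among all 2438 genes tested 2.91% were called (1.68% higher and 1.23% lower in FO), and after Benjamini-Hochberg adjustment 0 genes in all passed 0.05. DESeq2 on the same genes also called 0 of the 48. By sign 26 were higher and 22 lower in FO, against 50.6% higher among all genes. The median log2 fold change (FO over CO) was 0.03, against 0.00 for all genes, and the values ran from -0.57 for Cox4i1 to 0.48 for Uqcrc2. In none of the 48 did the mice of one diet all lie above those of the other, against 0.451% of all tested genes. The p-values set the difference between diets against the spread among the 5 mice of each diet. That spread was estimated partly from all genes tested.

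How large a difference these data could have missed is given by the intervals. The median standard error of the 48 log2 fold changes was 0.31, and for 40 of them the 95% interval lay within a 2-fold change in either direction. The 8 others include Cox4i1 and Uqcrc2. The distance from the fold change to either end of its interval ran from 0.46 log2 units for Atp5k (1.38-fold) to 0.83 for Uqcrfs1 (1.78-fold), with a median of 0.64 (1.56-fold). A fitted difference below this distance would not have passed the threshold for the respective gene. Whether true differences of these sizes would be found at this depth was not tested. When libraries were scaled by their size alone, without TMM, all 48 were lower in FO (median log2 fold change -0.49), along with all genes (median -0.48), so directions given here are relative to the bulk of genes.

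Complex I had a median log2 fold change of 0.18, with 11 genes higher and 6 lower by sign and 0 of 17 called. Complex II had a median of 0.16 (2 higher, 1 lower, 0 of 3 called), and complex III -0.07 (3 higher, 4 lower, 0 of 7). Complex IV had 0.01 (6 higher, 4 lower, 0 of 10), and complex V -0.08 (4 higher, 7 lower, 0 of 11). Without FO mouse 2 and CO mouse 5 the medians were 0.15, -0.06, -0.14, -0.07 and -0.09 for complexes I to V, with another sign for complexes II and IV. These medians covered fewer genes, since Sdha of complex II, Uqcrc2 of complex III and Ndufa4 of complex IV, among others, were not tested there. The 17 followed genes still tested kept their sign. When each mouse was left out in turn, the medians of complexes III, IV and V took both signs, and those of complexes I and II stayed at or above 0.00 and 0.03.

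**Figure D3:**
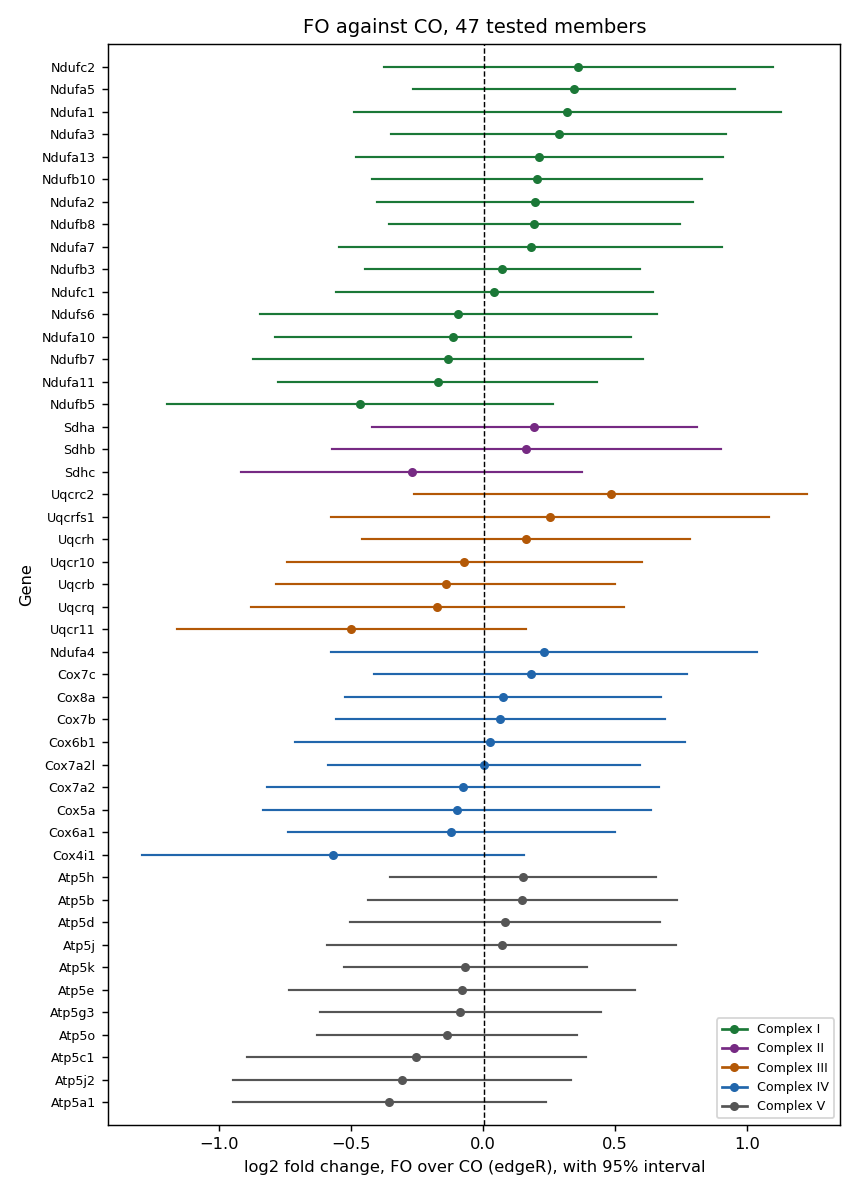
Points are log2 fold changes (FO over CO) of 47 of the 48 tested genes with their 95% intervals from edgeR, coloured by complex and ordered within it, and the dashed line is the median of all 2438 genes. The values run from -0.57 (Cox4i1) to 0.48 (Uqcrc2), and the interval of every gene shown includes 0.

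Among the tested genes of complex I, the smallest edgeR p in either direction belonged to an accessory subunit. Ndufa5 (chr6:24518666-24528013, GRCm38, minus strand), an accessory subunit of the peripheral arm, had 89.8, 55.4, 107.9, 68.9 and 79.1 CPM in FO mice 1 to 5 and 117.4, 59.4, 52.8, 40.9 and 58.5 CPM in CO mice 1 to 5. CO mouse 1 lay above every FO mouse, CO mice 2 and 5 among the lower FO mice, and CO mice 3 and 4 below every FO mouse. The log2 fold change was 0.34 (SE 0.29, edgeR p = 0.252, adjusted p = 0.998; two-sided exact permutation p = 0.389). Without CO mouse 1 it was 0.59 with an unadjusted edgeR p of 0.044, so this mouse decided on which side of the threshold the gene fell.

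Ndufb5 (chr3:32736990-32751566, plus strand), an accessory subunit of the membrane arm, had 20.3, 23.4, 24.0, 30.996 and 27.4 CPM in FO and 55.6, 49.5, 14.2, 45.8 and 23.2 CPM in CO. CO mice 1, 2 and 4 were above all FO mice and CO mouse 3 was below them. Its log2 fold change was -0.47 (SE 0.35, edgeR p = 0.196; two-sided exact permutation p = 0.159), and without CO mouse 3 it was -0.69 with an unadjusted edgeR p of 0.049. Of its exons 12.3% overlap those of Mrpl47 on the other strand, and the counting was not stated to use strand. The other accessory subunits of complex I ran from -0.17 for Ndufa11 to 0.36 for Ndufc2.

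In complex II, the 2 catalytic subunits and the membrane anchor all overlapped between diets. Sdha, the flavoprotein that oxidises succinate (chr13:74322254-74350280, minus strand), had 31.01, 27.0, 36.0, 32.1 and 27.4 CPM in FO and 30.9, 44.5, 20.3, 19.5 and 28.0 CPM in CO. The FO mice were close together inside the range of the CO mice, and the log2 fold change was 0.19 (SE 0.29, edgeR p = 0.518, two-sided exact permutation p = 0.722). Sdhb, the iron-sulfur subunit, had 35.4 ± 13.0 CPM in FO and 29.8 ± 8.2 in CO (SD, n = 5 each; log2 fold change 0.16, SE 0.35). Sdhc, an anchor in the membrane (chr1:171127165-171150603, minus strand), had 25.7, 39.1, 59.9, 48.2 and 36.5 CPM in FO and 55.6, 59.4, 32.5, 66.3 and 32.9 CPM in CO. FO and CO mice were interleaved, and the fitted change of Sdhc was -0.27 on the log2 scale (SE 0.31, edgeR p = 0.389, two-sided exact permutation p = 0.397).

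Complex III held the highest log2 fold change among the tested genes of the group and one of the lowest. Uqcrc2, a core protein of the complex (chr7:120635176-120659524, plus strand), had 37.4, 19.9, 24.0, 30.996 and 24.3 CPM in FO and 12.4, 19.8, 8.1, 33.1 and 17.1 CPM in CO. CO mice 1, 2, 3 and 5 lay below all FO mice, and CO mouse 4 reached the upper FO values. The log2 fold change was 0.48 (SE 0.35, edgeR p = 0.191; two-sided exact permutation p = 0.119). Without CO mouse 4 it was 0.98 with an unadjusted edgeR p of 0.019. Its counts were low in 4 mice (FO mouse 3 and CO mice 1 to 3, with 2 to 4 counts each), and 24.8% of its sequence stretches are shared with Pdzd9, whose exons overlap it on the other strand.

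Uqcr11, a small accessory subunit (chr10:80402997-80406830, minus strand), had 39.6, 21.3, 29.97, 27.6 and 27.4 CPM in FO and 61.8, 19.8, 30.5, 54.6 and 37.8 CPM in CO. CO mice 1 and 4 were above all FO mice, and CO mouse 2 was below them. For Uqcr11 the log2 fold change was -0.50 (SE 0.32, edgeR p = 0.130; two-sided exact permutation p = 0.214). Uqcrfs1, the Rieske iron-sulfur protein, had a log2 fold change of 0.25 (SE 0.40), and the other accessory subunits ran from -0.17 for Uqcrq to 0.16 for Uqcrh.

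In complex IV, Cox4i1 had the smallest edgeR p among the tested genes of the whole group. Cox4i1 (chr8:120668222-120674207, plus strand) is the widely expressed form of subunit 4, which binds regulatory nucleotides. It had 25.7, 25.6, 47.96, 25.3 and 48.7 CPM in FO and 86.5, 29.7, 32.5, 61.4 and 34.1 CPM in CO. CO mice 1 and 4 lay above all FO mice, and the other CO mice lay between the 3 lower and the 2 higher FO mice. The log2 fold change was -0.57 (SE 0.35, edgeR p = 0.115, adjusted p = 0.998; two-sided exact permutation p = 0.317), and it stayed between -0.73 and -0.37 when each mouse was left out. Of its exons 9.9% overlap those of Emc8 on the other strand.

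Cox7c, a small subunit in the membrane (chr13:86044816-86046904, minus strand), had the smallest edgeR p among the tested genes of complex IV with a positive value. It had 118.7, 104.4, 137.9, 198.6 and 213.0 CPM in FO and 228.7, 103.9, 144.2, 130.6 and 89.0 CPM in CO. The ranges of both diets nearly coincided, with a log2 fold change of 0.18 (SE 0.28, edgeR p = 0.533, two-sided exact permutation p = 0.698). Of its sequence stretches 27.9% are shared with other genes.

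In complex V, 7 of 11 genes were lower by sign. Atp5a1, the alpha subunit of the catalytic F1 head, had 72.7, 73.8, 149.9, 99.9 and 85.2 CPM in FO and 173.1, 163.3, 113.7, 75.1 and 93.9 CPM in CO. CO mice 1 and 2 lay above all FO mice and the remaining CO mice within their range. For Atp5a1 the log2 fold change was -0.36 (SE 0.28, edgeR p = 0.224; two-sided exact permutation p = 0.246). Its partner in the F1 head, the beta subunit Atp5b, had a log2 fold change of 0.15 (SE 0.28), and the gamma subunit Atp5c1 -0.25 (SE 0.31). Atp5h, a subunit of the peripheral stalk (chr11:115415689-115419962, minus strand), had 104.8, 94.4, 131.9, 97.6 and 82.1 CPM in FO and 55.6, 123.7, 99.5, 94.5 and 78.0 CPM in CO. Its log2 fold change was 0.15 (SE 0.24, edgeR p = 0.538, two-sided exact permutation p = 0.397), and 47.9% of its stretches are shared with other genes, pseudogenes among them.

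A level can be compared between genes only per length, so CPM were divided by the total length of a gene's annotated exons (CPM per kb). The highest level of complex I was that of Ndufb3, an accessory subunit, at 205.6 CPM per kb, and of complex V that of Atp5k, a membrane subunit, at 175.0. Complex III reached 142.0 with Uqcrh, the hinge protein beside cytochrome c1, and complex IV 129.9 with Cox7c. Complex II was lower, and its highest gene, Sdhb, had 14.6 CPM per kb. The medians over the tested genes were 40.9, 14.0, 54.6, 46.4 and 35.1 CPM per kb for complexes I to V. The filter on low counts selected these genes, 17 of 35 in complex I and 3 of 4 in complex II, and over all members with a count the medians were 15.2, 10.6, 36.6, 20.6 and 25.3. With the length of the longest transcript in place of all exons, the medians of the tested genes were 50.3, 14.4, 57.9, 58.8 and 56.9, and those of all members with a count 18.4, 12.3, 40.2, 23.8 and 40.9. Complex II had the lowest median in each case, but the distance from complex I was far smaller over all members with a count. The order of the top genes depended on the length. With the longest transcript Atp5g3 was highest (239.8), followed by Uqcrh (219.3), Cox7c (207.2) and Ndufb3 (205.6), and Sdhb had 26.5 CPM per kb.

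The top genes did not differ between diets beyond their spread. Ndufb3 had 209.8 ± 47.8 CPM per kb in FO and 201.3 ± 56.0 in CO, Atp5k 172.2 ± 31.9 and 177.8 ± 18.8, and Uqcrh 148.1 ± 52.3 and 135.9 ± 52.8 (SD, n = 5 each). Their log2 fold changes were 0.07 (SE 0.25), -0.07 (SE 0.22) and 0.16 (SE 0.30). Per kb of all exons, Ndufb3 was above Atp5k in 9 of 10 mice, with CO mouse 5 as the exception.

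Beside each widely expressed form of a subunit of complex IV, and beside Ndufa4, the other isoform compared here was the less abundant one. Of the c-ring of ATP synthase, whose 3 genes encode the same mature protein, Atp5g3 (1204 counts) was the most abundant of the 48 genes by counts, Atp5g1 had 41 counts, and Atp5g2 lies on chromosome 15 and has no level here. Per length, Atp5g1 made up 1.36% of Atp5g1 and Atp5g3 together. Of Cox4i1 and Cox4i2, the form known from lung for its response to low oxygen, Cox4i2 made up 7.83% with 16 counts, and of Ndufa4 and Ndufa4l2, another gene known to respond to low oxygen, Ndufa4l2 made up 20.6% with 21 counts. Cox6b2, a testis form, made up 2.80% beside Cox6b1 with 16 counts. With the longest transcript as length, these shares were 0.566% for Atp5g1, 4.31% for Cox4i2, 20.3% for Ndufa4l2 and 4.55% for Cox6b2, so that those of Atp5g1, Cox4i2 and Cox6b2 depended on the length used. None of the minor isoforms had more than 3 counts in over 4 of the 10 mice.

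The minor isoforms Cox6a2, Cox7a1 and Cox8b are known from heart and skeletal muscle. They had 19, 17 and 9 counts and made up 5.93% beside Cox6a1, 7.25% beside Cox7a2 and 2.46% beside Cox8a, or 5.28%, 5.68% and 2.19% with the longest transcript. Together they had 13, 7, 0, 4 and 0 counts in FO mice 1 to 5 and 0, 0, 3, 10 and 8 in CO mice 1 to 5, so that the diets overlapped and 4 of 10 mice had none. The heart markers had 85, 464, 17, 109 and 18 counts in FO and 6, 11, 45, 36 and 146 in CO. The 4 skeletal muscle markers, with Tnnt3 (67 counts) and Acta1 (58) as the most abundant, had 42, 74, 0, 6 and 1 counts in FO and 0, 2, 0, 1 and 13 in CO. In the fit of all genes with a count, 3 of the 8 heart markers (Ttn, Tnnt2 and Tnni3) and 2 of the 4 skeletal markers (Acta1 and Tnnt3) were higher in FO at an unadjusted p of 0.05 in edgeR, where 2.58% of all genes were. In the two-sided exact permutation test p was 0.49 for Ttn, 0.21 for Tnnt2, 0.024 for Tnni3, 0.37 for Acta1 and 0.28 for Tnnt3. FO mouse 2 alone held 148 of the 211 counts of Ttn, 66 of the 126 of Tnnt2 and 42 of the 67 of Tnnt3. The part of muscle tissue in the isoform counts was not tested. The fat markers Ucp1, Cidea, Adipoq and Plin1 had 3, 2, 12 and 7 counts in all mice together and Cfd 82. Of the blood cell markers, S100a8 and S100a9 of neutrophils had 218 and 275 counts and Alas2 of red cell precursors 244, while the globin genes Hbb-b1 and Hba-a1 were listed at 0. Sequence shared with other genes was not computed for the globin genes, so their zeros are not read as absence of red cell RNA. S100a9 was higher in FO (log2 fold change 2.28, SE 0.48, two-sided exact permutation p = 0.0079, the smallest possible with 5 mice a diet). In the fit of all genes with a count S100a8 (log2 fold change 1.62, SE 0.38, exact permutation p = 0.032) and Alas2 (0.99, SE 0.36, exact permutation p = 0.19) were also called higher in FO, with edgeR adjusted p values of 0.149 and 0.905. S100a9 was the 1 gene that passed adjustment there (edgeR adjusted p = 2e-05), while in the filtered fit its adjusted p was 0.375. The part of blood cells in the values of the respiratory genes was not tested.

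**Figure D4:**
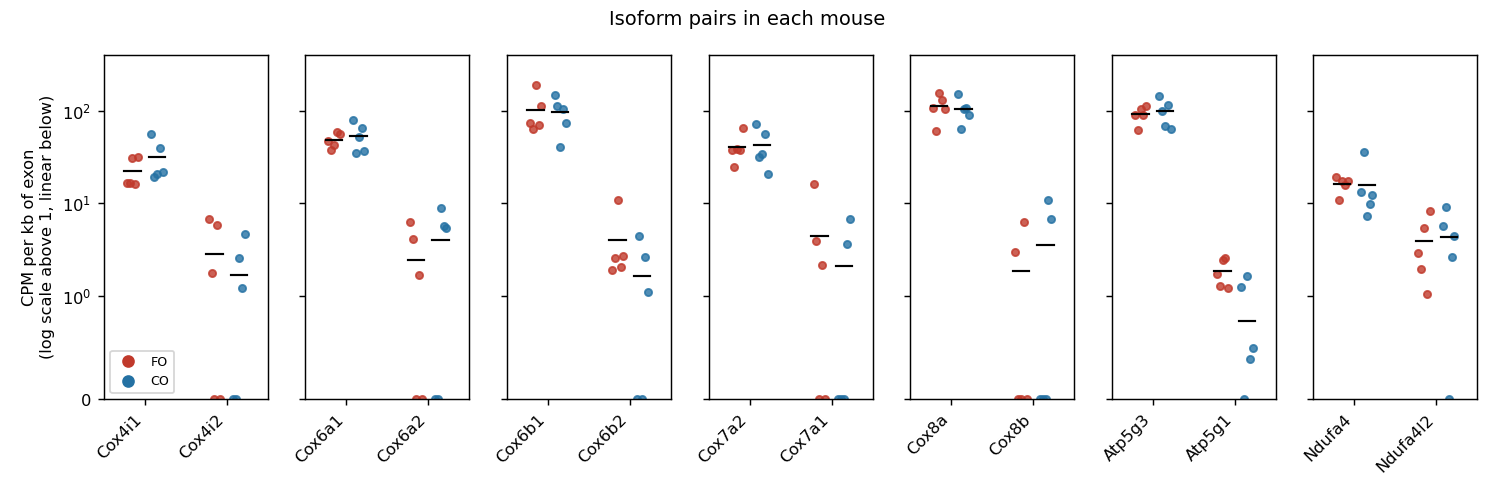
Each panel shows 2 isoforms of a subunit, the widely expressed form (for the c-ring, Atp5g3) on the left and the other on the right, in CPM per kb of exon, on an axis that is logarithmic above 1 and linear below, with 1 point per mouse (FO red, CO blue) and the mean as a line. The left gene lies above the right on average in each panel, for example 107.0 against 2.7 CPM per kb for Cox8a and Cox8b, and several mice have the minor form at 0.

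The genes that the filter had removed were looked at in a wider fit. In a fit of all 14161 genes with any count, 4.15% of genes were called at an unadjusted p of 0.05 (2.58% higher and 1.57% lower in FO), and 0.00706% passed adjustment. Of the 77 members 1 was called, Atp5l (edgeR adjusted p = 0.905). Atp5l had 1, 0, 0, 0 and 0 counts in FO and 0, 1, 2, 2 and 3 in CO, all within the limit of 3 counts. The two-sided exact permutation test of CPM gave an unadjusted p under 0.05 for 4 of the 77 (5.19%), against 2.77% of all genes with a count, namely Atp5g1 and Uqcrc1, higher in FO, and Atp5l and Ndufs3, lower. These 4 were chosen by their values, and none of the 48 genes that passed the filter was among them.

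Uqcrc1, the partner of Uqcrc2 in the core of complex III, had 6.4, 13.5, 17.98, 17.2 and 30.4 CPM in FO and 6.2, 4.9, 12.2, 8.8 and 8.5 CPM in CO. FO mice 2 to 5 were above all CO mice, but FO mouse 3 had 3 counts and CO mice 1 and 2 had 1 each, within the limit of 3 counts. The exact p was 0.048 and the edgeR log2 fold change 0.82 (SE 0.51, unadjusted p = 0.109). Atp5g1 had 8, 9, 2, 11 and 2 counts in FO and 1, 0, 4, 2 and 2 in CO, with an exact permutation p of 0.040 and an edgeR log2 fold change of 1.31 (SE 0.69, unadjusted p = 0.059).

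The genes varied together from mouse to mouse. Each gene's log2 CPM was compared with the median of the other 47 over the 10 mice, and the median correlation was 0.62, with 31 of 48 (64.6%) above 0.5. Of the other 2390 tested genes 17.7% correlated above 0.5 with the median of the 48 (median -0.05). Measured in the same way within their own list, ribosomal protein genes had a median of 0.74 and proteasome subunit genes 0.28. The highest was that of Atp5g3 (0.95), and the lowest that of Cox7a2l (-0.44). These correlations are descriptions over mice that share their library, depth and scaling, and no p is given. The mice at the low end were FO mouse 2 and CO mouse 5, where the median gene of the group lay 0.41 and 0.35 log2 units below its own mean. CO mouse 1, the shallowest, lay highest, 0.50 log2 units above its mean.

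In FO mouse 2 and CO mouse 5, 40 of the 48 genes (83.3%) were below their own mean in both mice, against 32.3% of all tested genes. Ribosomal protein genes, which are also short and highly expressed, were below in both in 91.2% of 68 genes, and proteasome subunit genes, which form another complex present in every cell, in 40.0% of 25. The same mice had the high Malat1 shares given above, and the lowest shares of ribosomal protein genes (4.73% and 5.20%, with 6.83% or more in the others). The part of library preparation or RNA quality in this was not tested. All 5 complexes were low in both mice. Their median deviations ran from -0.15 log2 units for complex II to -0.51 for complex IV in FO mouse 2. In CO mouse 5 they ran from -0.30 for complex I to -0.65 for complex III.

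Only 1 of the 48 genes (2.08%), Cox7a2l, was above its mean in both mice, against 37.9% of all tested genes. Cox7a2l (chr17:83501918-83517330, minus strand), also known as SCAF1, was listed with complex IV as a supercomplex factor. Whether its protein has this activity in the mice used here was not tested. It had 81.3, 172.5, 95.9, 88.4 and 85.2 CPM in FO and 111.3, 118.8, 60.9, 88.7 and 153.7 CPM in CO. FO mouse 2 and CO mouse 5 had the highest value of their diet, with 243 and 126 counts behind them. Between diets its log2 fold change was 0.00 (SE 0.28, edgeR p = 0.994, two-sided exact permutation p = 0.921).

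**Figure D5:**
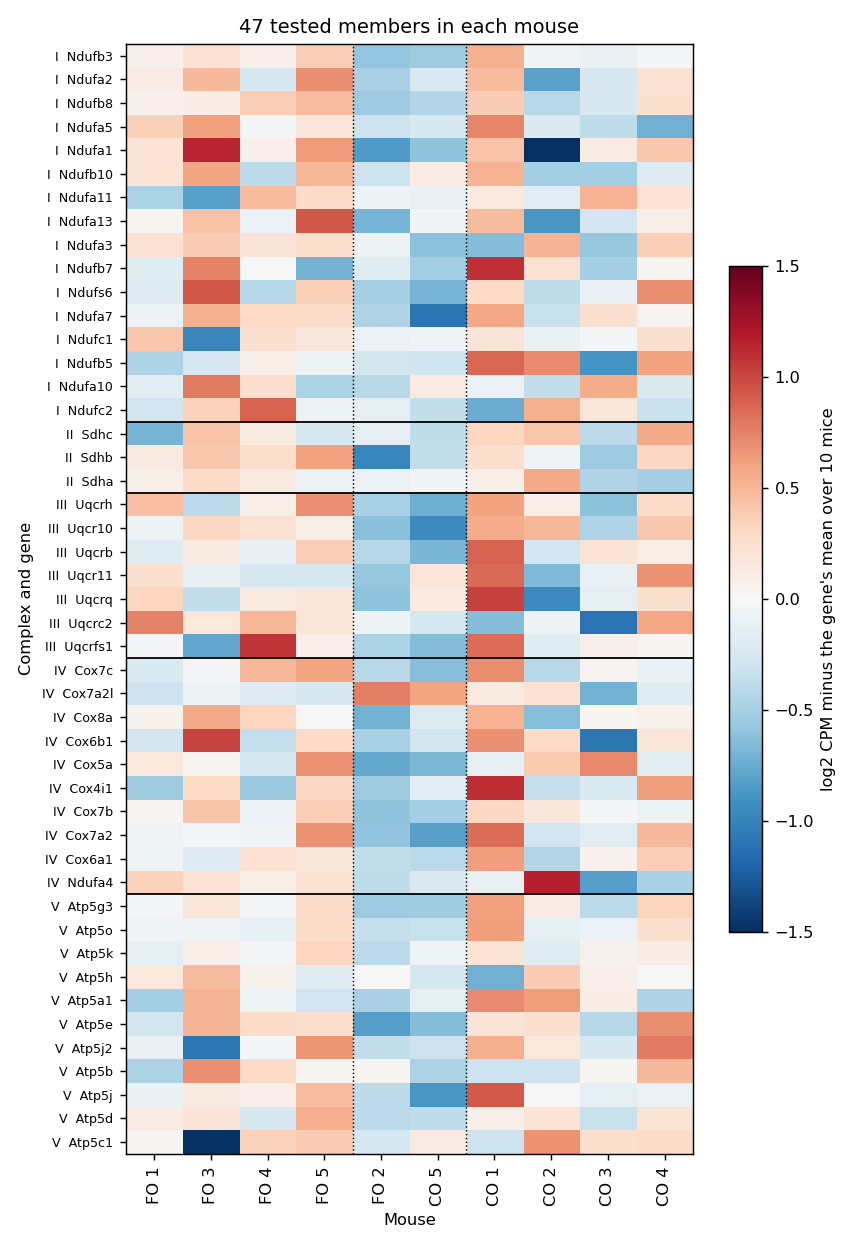
Rows are 47 of the 48 tested genes ordered by complex and then by counts, columns are mice with FO mouse 2 and CO mouse 5 placed side by side in the middle, and colour gives log2 CPM minus the gene's mean over the 10 mice. The 2 middle columns are low for most genes, with Cox7a2l as the only gene above its mean in both, and no block of rows separates FO from CO.

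The genes around the respiratory chain were tested in the same fit. Of 11 other subunits and electron carriers 4 were tested and 0 called. Atpif1, the inhibitor of ATP synthase, had a log2 fold change of -0.31 (SE 0.29), and Usmg5, a small ATP synthase subunit with a symbol outside the rule, 0.11 (SE 0.38). Of 47 assembly factors 43 were in the table, 4 were tested and 0 called, with Cox17, the copper chaperone of complex IV, at -0.02 (SE 0.28). Of 16 genes of the citric acid cycle 3 were tested and 0 called (Dlst -0.33, Mdh2 0.02 and Pdha1 0.24), and of 16 genes of glycolysis 5 were tested and 0 called, with Aldoa at 0.40 (SE 0.29) as the largest. Of 12 regulators of mitochondrial genes only Yy1 was tested, with a log2 fold change of -0.08 (SE 0.38). In the fit of all genes with a count, where 4.15% of genes were called, 4 of the 90 genes of these 5 lists were called at an unadjusted p of 0.05 in edgeR (4.44%), a share near that of all genes, and each had an adjusted p of 0.905. They are described here for their values alone. Dld, the dihydrolipoamide dehydrogenase shared by the pyruvate and oxoglutarate dehydrogenase complexes, had 12.8, 18.5, 23.98, 20.7 and 15.2 CPM in FO and 6.2, 9.9, 8.1, 8.8 and 8.5 CPM in CO. All FO mice were above all CO mice, as in 0.353% of all genes with a count in either direction, and the log2 fold change was 1.05 (SE 0.50, two-sided exact permutation p = 0.0079), on 1 to 26 counts a mouse. Hexokinase Hk2 had a log2 fold change of 1.35 (SE 0.66, exact permutation p = 0.048), and Taco1, a translational activator for complex IV, one of -0.81 (SE 0.39, exact permutation p = 0.13). Atpaf1, an assembly factor of the F1 head, had 3 counts in all, in CO mice 3 and 4. The mitochondrial DNA genes of complexes I, III, IV and V were looked for under 26 symbols, of which 0 were in the table, so nuclear and mitochondrial subunits could not be compared.

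The genes of 2 other large complexes are given beside these values. Of 68 tested ribosomal protein genes 54 were higher and 14 lower in FO by sign, the median log2 fold change was 0.09, and 1 was called (Rps19, higher). Of 25 tested proteasome subunit genes 14 were higher and 11 lower, the median was 0.02, and 1 was called (Psmd7, lower). For the 48 oxidative phosphorylation genes these values were 26, 22 and 0.03, with 0 called, and the differences between the lists were not tested.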

How the data were processed

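The authors aligned the reads with STAR 2.4.0f1 to the mm10 mouse genome, and the submitters' processing notes also list SAMtools 0.1.19 and HTSeq. The deposited values are raw counts per gene symbol, without normalization, in 1 table with a column for each mouse. Library kits (TruSeq RNA v2 or riboZero) are not assigned to mice in the labels, and the annotation and the strand setting of the counting are not given in the sources used here. Diets were taken from the sample labels. Rn45s made up 21.8% to 87.0% of the total counts, and the precision of a value is set by the 45177 to 473254 other counts of a mouse.

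Tests of the counts were run in R 4.3.3 with edgeR 4.0.16 (TMM, filterByExpr at its defaults of 10 for the minimum count and 15 for the minimum total, quasi-likelihood test without robust estimation, diet as the only term), which left 2438 genes with a common dispersion of 0.0956. Log2 CPM used a prior count of 2. The threshold was an unadjusted p of 0.05, and Benjamini-Hochberg adjusted values were computed over all genes tested. Exact permutation tests over the mice (scipy 1.17.1, two-sided) can give no p below 0.0079. The script was tested on simulated data. Single values of some genes are not reported here. Positions, exon lengths and shared stretches of 50 bases came from GENCODE M21, and promoters from RefSeq GRCm38.p6, with none matched for, among others, Atp5a1, Cox4i1, Cox4i2, Cox6a2, Cox6c, Cox8c, Ndufa2, Ndufa4l2, Ndufb9, Ndufs1, Sdhc, Uqcrb, Uqcrc2 and Uqcrq.

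The genes, the complexes, the 14 other lists and the tests were chosen with earlier results of these data known. Genes were named by rule: in each complex the smallest p in each direction and the highest level per length, members called or not overlapping (none), the isoform sets and the Sdh genes, called members of the other lists in the filtered fit (only S100a9) and the cell type markers. Members named for being at 0, for shared sequence, for promoter motifs, for single values in other lists or calls in the wider fit (Dld, Hk2, Taco1 and Atpaf1), for the calls among ribosomal and proteasome genes (Rps19, Psmd7), as ends of a range, or for standing apart (Cox7a2l, Uqcrc1) were picked with their values in view. Alternatives comprised RLE scaling factors, library size alone, DESeq2 1.42.0, all genes with a count, a mean of at least 10 counts, Rn45s left out, each mouse left out, FO mouse 2 and CO mouse 5 left out, the replicate block, the Malat1 share as a covariate, Ndufa4 and Ndufa4l2 in complex I, and the longest transcript as length. Leaving out the 3 shallowest mice was added after seeing the data.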

Additional observations from a re-analysis of the deposited data

Results flagged for a closer look

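In 58 groups of 5 values (each diet, over named genes and library measures) the highest or lowest mouse was compared with the other 4 by Dixon's ratio, and 5 values stood apart. About 1 in 20 groups, here 2.9, is flagged by chance. Among the library measures, Malat1 took 8.532% of the counts other than Rn45s in FO mouse 2, where the other FO mice had 0.176% to 0.928%, and 6.149% in CO mouse 5, where the other CO mice had 0.135% to 1.05%. The 8 heart markers summed to 329.5 CPM in FO mouse 2, against 54.8 to 125.1 CPM in the other FO mice. Ndufa5, an accessory subunit of complex I, was at 117.4 CPM in CO mouse 1, against 40.9 to 59.4 CPM in the other CO mice, with 19 counts behind the value. Ndufa4, a subunit of complex IV, was at 49.49 CPM in CO mouse 2, against 10.2 to 18.5 CPM, with 10 counts behind it.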

How the results depend on the processing

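None of the 48 tested genes was called with RLE scaling factors, DESeq2, library size alone or the Malat1 covariate, and none of those tested without FO mouse 2 and CO mouse 5, with a mean of 10 counts, without Rn45s or without the 3 shallowest mice. With all genes with a count 1 was called (Atp5l, of 77). The number of all genes called, 71, became 33 with library size alone, 587 with all genes with a count (more genes tested), 107 with a mean of 10 counts (more genes tested), 107 without Rn45s (more genes tested) and 128 with the Malat1 covariate, for which the cause was not tested. With library size alone all genes shifted by -0.48, the median of the 48 was -0.49, and the medians of complexes I to V were -0.39, -0.42, -0.60, -0.47 and -0.63. Under it the signs of Ndufa5 (-0.051), Sdha (-0.23), Uqcrc2 (-0.19), Cox7c (-0.28), Atp5h (-0.36), Ndufb3 (-0.40), Sdhb (-0.42), Uqcrh (-0.32), Cox6b1 (-0.54), Cox8a (-0.50) and Ndufa4 (-0.17) were reversed. Without the 3 shallowest mice those of Cox7a2 (0.032), Cox8a (-0.028) and Atp5g3 (0.061) were reversed.

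With each mouse left out in turn, 54 to 156 of all genes were called (156 without FO mouse 2) and 0 to 1 of the members: Ndufa5 without CO mouse 1, Ndufb5 without CO mouse 3 and Uqcrc2 without CO mouse 4. The member median ran from -0.09 to 0.11, and those of the complexes from 0.00 to 0.31 (I), 0.03 to 0.24 (II), -0.29 to 0.09 (III), -0.12 to 0.14 (IV) and -0.22 to 0.03 (V). Signs of single genes also turned for Ndufb3 (-0.045 to 0.23), Atp5k (-0.16 to 0.013), Cox6a1 (-0.26 to 0.029), Cox6b1 (-0.24 to 0.19), Cox7a2 (-0.30 to 0.15), Cox8a (-0.046 to 0.25) and Atp5g3 (-0.22 to 0.076). With the replicate block 55 of all genes and 0 of the 48 members were called, and the member median was 0.04. Same-numbered mice are different animals and their deviations correlated between -0.41 and 0.03, so the numbers were not taken as pairs. Depth limits these results. The filter removed 29 members with a count. As a full set these 29 were tested only in the fit of all genes with a count and by exact permutation. Some of them were also tested under alternatives with more genes, for example with the filter on mean counts (56 members tested, 0 called). The 4 members on chromosome 15 and the 3 others at 0 were not tested.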
